A study of Mus musculus with 12 samples.

Results

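The Hox genes were followed in the gastrocnemius, a calf muscle of the hindlimb, of mice that had received feces from trained or sedentary donors. Members were the transcript clusters, the probe groups that stand for 1 gene on the array, whose only gene symbol was Hoxa, Hoxb, Hoxc or Hoxd followed by a paralog number. The rule found 37 genes among 28944 transcript clusters, each gene with 1 transcript cluster. They were 10 Hoxa genes on chromosome 6, 9 Hoxb genes on chromosome 11, 9 Hoxc genes on chromosome 15 and 9 Hoxd genes on chromosome 2, by the RefSeq gene table. Other Hox genes were not analysed here, and 1 transcript cluster that carried a Hox symbol beside another symbol was left out.

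Signals in log2 units were read from Mouse Gene 1.0 ST arrays (Affymetrix), of which each of 12 mice had 1. The 6 RT mice were recipients of feces from trained donors and the 6 RS mice recipients of feces from sedentary donors, both sampled after 1 week of transplantation. All recipients were male germ-free ICR mice of 11 weeks, an outbred strain, were colonized by repeated gavage, ate a high-fat diet and were fasted for 4 h before sampling. Mice of a group shared cages and received the same fecal material, so the p-values measure the spread between mice that may share a cage. A bulk muscle sample mixes fibers with connective tissue, vessels and nerve, and fewer cells of a type and less RNA per cell cannot be told apart in it.

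Hox genes encode homeodomain transcription factors that give cells their address along the head-to-tail axis and along the limb. They lie in 4 clusters, and within a cluster the paralog number follows both the order on the chromosome and the place of use in the embryo: low numbers act toward the head, high numbers toward the tail and the tip of the limb. Adult connective tissue cells, and muscle stem cells of different origin, keep part of this embryonic pattern, so that Hox transcripts serve as a positional memory of tissue. Here paralogs 1 to 3 were called anterior, 4 to 8 central and 9 to 13 posterior.

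The promoters of the lower Hox genes that the RefSeq promoter table held are shown first, because they are the control regions of genes called lower in RT further on. Each runs from 250 bases before to 50 bases after the transcription start (build GRCm38.p6). That of Hoxb1 lies at chr11:96365508-96365807 on the plus strand, and its capitals mark TGATNNAT, the pattern that Pbx and Hox proteins bind together. Those of Hoxd1, at chr2:74762730-74763029, and of Hoxd3, at chr2:74711743-74712042, both on the plus strand, hold no such pattern, and their capitals mark CG dinucleotides.
Hoxb1: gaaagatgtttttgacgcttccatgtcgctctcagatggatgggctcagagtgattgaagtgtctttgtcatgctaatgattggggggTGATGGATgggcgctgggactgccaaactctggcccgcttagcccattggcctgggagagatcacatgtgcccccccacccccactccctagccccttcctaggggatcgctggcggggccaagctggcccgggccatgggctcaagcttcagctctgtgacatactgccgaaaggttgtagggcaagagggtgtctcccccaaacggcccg
Hoxd1: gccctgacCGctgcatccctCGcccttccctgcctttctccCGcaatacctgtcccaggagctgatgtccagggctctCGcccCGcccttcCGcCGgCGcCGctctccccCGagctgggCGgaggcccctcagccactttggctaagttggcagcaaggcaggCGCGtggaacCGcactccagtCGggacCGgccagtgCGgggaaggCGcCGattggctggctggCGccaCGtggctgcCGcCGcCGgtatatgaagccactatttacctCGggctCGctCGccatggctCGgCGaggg
Hoxd3: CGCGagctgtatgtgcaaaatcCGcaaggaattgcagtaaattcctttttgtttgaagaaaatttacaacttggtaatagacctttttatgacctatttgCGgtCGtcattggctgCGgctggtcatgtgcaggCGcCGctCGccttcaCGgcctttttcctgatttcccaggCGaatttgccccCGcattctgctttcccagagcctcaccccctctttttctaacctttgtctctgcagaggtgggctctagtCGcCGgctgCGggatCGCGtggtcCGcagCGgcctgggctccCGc

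The Hoxb1 promoter held the Pbx and Hox pattern on the plus strand, at position -162 from the start, and 10 CG dinucleotides. The Hoxd1 promoter held 29 CG dinucleotides and the Hoxd3 promoter 20. The promoter table gave 23 promoters for 21 of the 37 Hox genes, with a median of 15 CG dinucleotides in 300 bases, against a median of 7 over all 32851 promoters of the same length. TGATNNAT, searched on both strands, stood in 3 of the 23 Hox promoters (13.04%), those of Hoxb1, Hoxa2 and 1 of the 2 of Hoxd11, and in 8.846% of all promoters. A match of letters is a description of the sequence alone.

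The Hox clusters also hold miRNA genes, and their mature sequences are shown because members of 2 seed families gave transcript clusters here. Capitals mark the seed, bases 2 to 8, by which a miRNA recognizes its targets (RefSeq, build GRCm38.p6).
miR-10a-5p: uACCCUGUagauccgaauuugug
miR-10b-5p: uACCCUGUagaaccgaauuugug
miR-196a-5p: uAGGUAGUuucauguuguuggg
miR-196b-5p: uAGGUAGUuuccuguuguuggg
miR-615-3p: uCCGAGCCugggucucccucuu

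The 10a and 10b miRNAs share 1 seed and lie in the Hoxb and Hoxd clusters. The 196a and 196b miRNAs share another, and miR-196a-5p is made from a gene in the Hoxb cluster and another in the Hoxc cluster.

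The level of each Hox transcript cluster was first set beside that of genes that muscle does not use. Olfactory receptor genes, which serve the nose, gave 1023 transcript clusters with a median signal of 2.07 and a 95th percentile of 3.74, and a Hox gene was called above background when its mean over the 12 mice passed that percentile. By this limit 30 of the 37 Hox genes were above background: 9 of 10 in cluster A, 8 of 9 in B, 7 of 9 in C and 6 of 9 in D. The count was 17 with the 99th percentile, 4.62, and 35 with the 95th percentile of vomeronasal receptor genes, 2.95. Probes of different genes bind with different strength, so the order of levels between Hox genes is a description and was not tested.

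**Figure D1:**
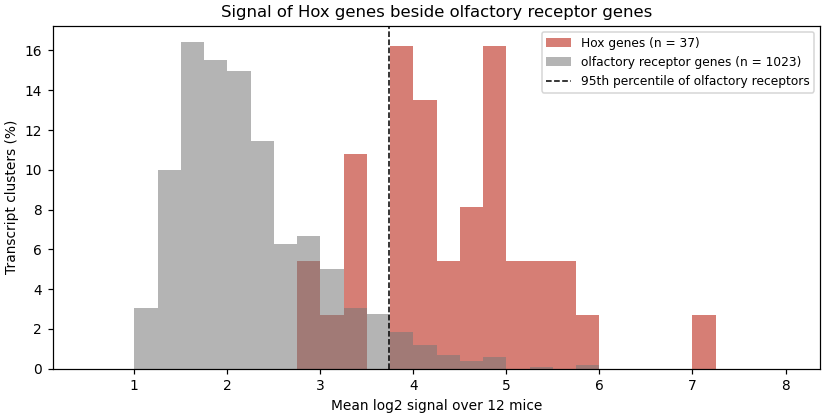
Mean log2 signal over the 12 mice (horizontal axis) against the percent of transcript clusters (vertical axis) for 37 Hox genes and 1023 olfactory receptor genes, with the 95th percentile of the olfactory receptors at 3.74 as a dashed line. The Hox genes reach from 2.89 to 7.19, and 7 of them lie left of the line.

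The 7 Hox genes that did not pass the background limit stood at both ends of the clusters. They were Hoxa2 and Hoxb2, which pattern the hindbrain and the arches of the head and neck, Hoxd1, and the most posterior genes Hoxc12, Hoxc13, Hoxd12 and Hoxd13, which act in hair follicles and in the digits. Their means ran from 2.89 for Hoxc13 to 3.40 for Hoxd12. All 14 central genes passed, against 4 of 7 anterior and 12 of 16 posterior genes. This order depended on the limit. With the 99th percentile, 6 of the 14 central, 2 of the 7 anterior and 9 of the 16 posterior genes passed. Just above the limit lay Hoxa13, Hoxb7, Hoxa11, Hoxb13 and Hoxa5, with means between 3.75 and 3.78.

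The brightest Hox gene was Hoxc10, which is used in the lumbar region and the hindlimb. Its signal was 7.08 at the lowest, 7.23 at the median and 7.43 at the highest in RT mice, and 6.93, 7.08 and 7.38 in RS mice. The groups overlapped, and 5 of the 6 RT mice were above the RS median. Its mean of 7.19 was higher than that of 89.1% of all transcript clusters. The next were Hoxd8 at 5.92, Hoxc9 at 5.65, Hoxa4 at 5.60, Hoxc8 at 5.44 and Hoxd9 at 5.39. In cluster B no gene was brighter than Hoxb3, at 4.96.

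The layout of levels differed by cluster. In clusters C and D the signal was highest at paralogs 8 to 10 and lower toward paralog 13, with Hoxc8, Hoxc9 and Hoxc10 at 5.44, 5.65 and 7.19 against 3.28 for Hoxc12 and 2.89 for Hoxc13. In cluster D the values were 5.92, 5.39 and 4.92 for Hoxd8, Hoxd9 and Hoxd10, against 3.40 for Hoxd12 and 3.07 for Hoxd13. In cluster A, Hoxa4, Hoxa6, Hoxa7, Hoxa9 and Hoxa10 lay between 4.85 and 5.60, and Hoxa5, between Hoxa4 and Hoxa6 in the cluster, at 3.78. In cluster B, Hoxb1, Hoxb3 and Hoxb9 lay between 4.78 and 4.96 and the other members between 3.38 and 4.24, with no steady course along the cluster.

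**Figure D2:**
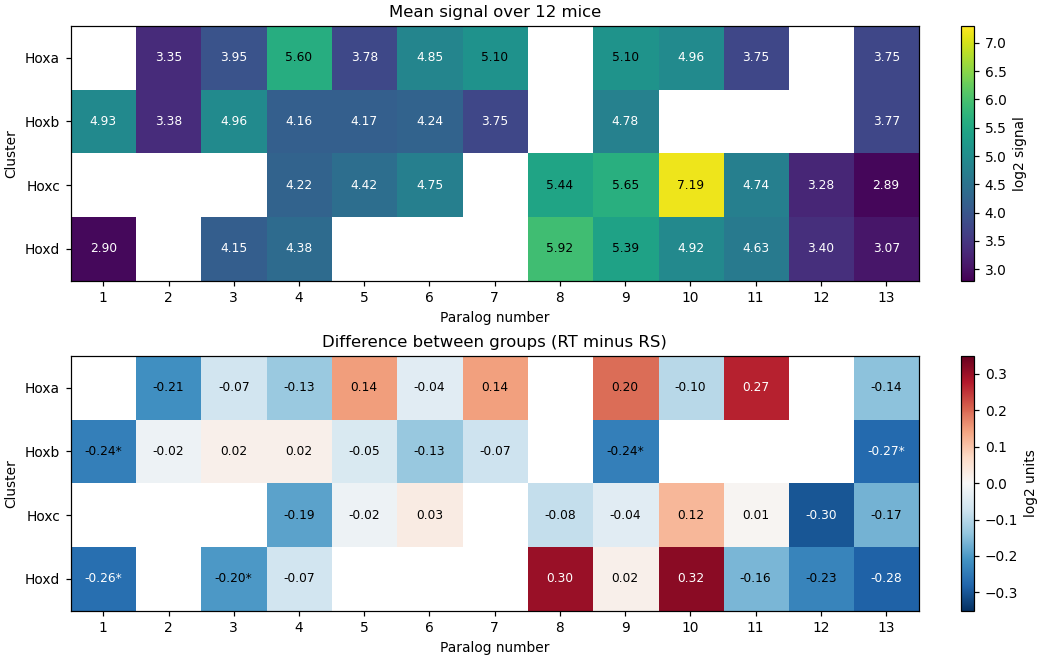
Grid of the 37 Hox genes by cluster (rows) and paralog number (columns), with the mean log2 signal over 12 mice in the upper panel and the RT minus RS difference in log2 units in the lower panel. Stars mark the 5 genes called lower in RT, and empty cells are genes that do not exist or were not analysed here.

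Limb identity factors outside the clusters were read beside the Hox genes. Pitx1, which directs hindlimb identity, had a mean of 4.38 and Tbx4, a hindlimb T-box factor, 4.69, both above background. With the 99th percentile of olfactory receptors, 4.62, Tbx4 still passed and Pitx1 did not. Tbx5, the forelimb counterpart of Tbx4, was at 2.73 and did not pass the background limit. Tbx15, a T-box factor of limb and glycolytic muscle fibers, was the brightest gene of that list, at 7.98. The labelled tissue was also checked by 12 muscle fiber markers, all above background, with means from 9.13 to 12.97 and Acta1, skeletal muscle actin, as the brightest.

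The comparison of RT with RS asked whether feces of trained donors altered the muscle transcriptome. Calls needed an unadjusted p under 0.05 in limma, together with an adjusted p (Benjamini-Hochberg, over all transcript clusters) under 0.1. Of the 37 Hox genes, 5 were lower in RT, none was higher and 32 were not called. Over all transcript clusters 13% were called lower (3764) and 11.9% higher (3445). Among the 19278 transcript clusters within the Hox range of mean signal these shares were 15.9% and 13.3%. The shares varied with signal, and over 10 equal classes of mean signal, weighted by the Hox genes in each, 18.8% were lower and 9.30% higher. The count of 5 among 37 was near or below these shares. An unadjusted limma p under 0.05 was reached by 9 Hox genes, of which Hoxa9 alone had a higher mean in RT. The share of all transcript clusters with such a p was not counted. It is at least that of the calls, which also needed an adjusted p, 13% lower and 11.9% higher. The methods' t-test also called 5 lower and 0 higher.

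The differences were small in either direction. The fitted RT minus RS differences of the 37 genes ran from -0.30 for Hoxc12 to 0.32 for Hoxd10 on the log2 scale, with 25 below and 12 above 0. Their median was -0.07, against -0.01 over all transcript clusters and -0.02 over those in the Hox range of signal. All 37 confidence intervals (95%) lay within 1 log2 unit of 0, a 2-fold difference, and 32 lay within 0.5. The outermost bounds were -0.56 for Hoxc12 and 0.76 for Hoxd10.

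**Figure D3:**
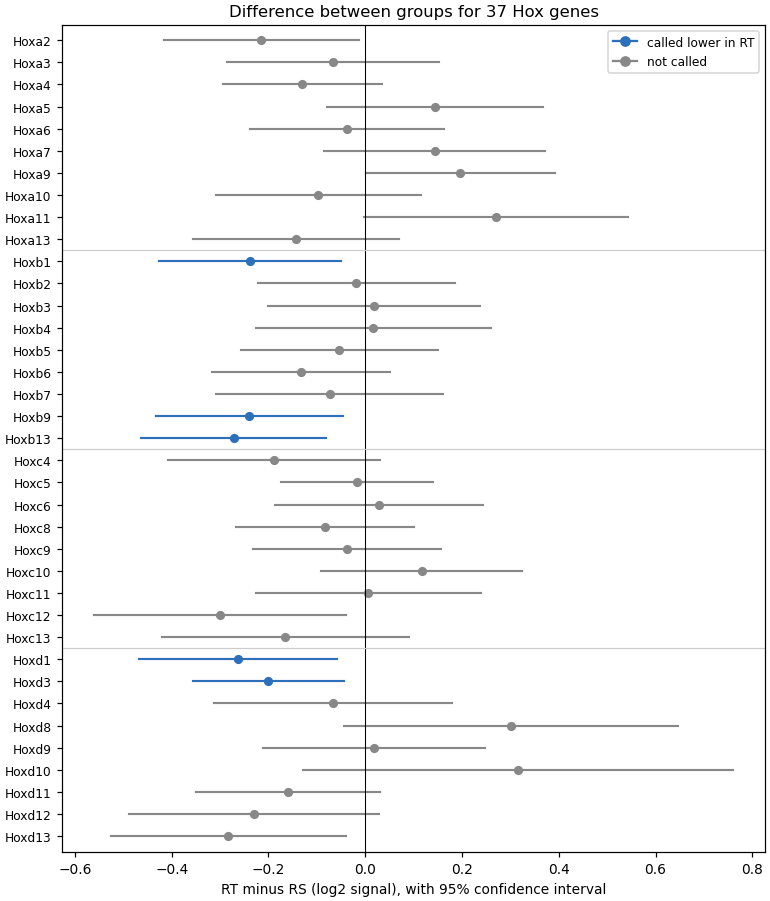
RT minus RS difference in log2 signal with its 95% confidence interval from limma (horizontal axis) for each of 37 Hox genes (vertical axis, by cluster and paralog number, 6 mice per group). The 5 called genes, all left of 0, lie between -0.27 and -0.20, while intervals of most other genes cross 0.

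Among anterior genes, 3 of 7 were lower in RT, namely Hoxb1, Hoxd1 and Hoxd3, and the median difference of the 7 was -0.20. The counts by paralog class stand beside a share of 18.8% lower in the signal classes of all 37 Hox genes. Of these 3, Hoxb1 alone stayed called after a further quantile normalization or cyclic loess scaling, and none with array spread as a covariate. Hoxb1 sets the identity of a hindbrain segment. Its signal was 4.65, 4.85 and 4.98 in RT mice (lowest, median, highest), against 4.85, 5.03 and 5.25 in RS mice. All 6 RT mice lay below the RS median, and 3 of them below every RS mouse. The difference was -0.24 (95% interval -0.43 to -0.05, limma adjusted p = 0.0768, exact permutation p = 0.0195).

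Hoxd3 acts in the first neck vertebrae and was the only Hox gene whose groups did not overlap. It lay at 3.96, 4.07 and 4.15 in RT mice (lowest, median, highest), against 4.16, 4.22 and 4.37 in RS mice. Of all transcript clusters, 3.10% had groups without overlap and lower in RT, and 2.69% without overlap and higher. The difference was -0.20 (95% interval -0.36 to -0.04, limma adjusted p = 0.0747), and the exact permutation p of 0.00216 is the smallest that 6 against 6 mice can give. Any gene whose groups do not overlap gets this p, so it adds nothing to the lack of overlap.

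Hoxd1, which guides the wiring of pain-sensing neurons in the mouse, had a mean of 2.90 and was not above background. Its values were 2.64, 2.72 and 2.96 in RT mice (lowest, median, highest), against 2.79, 3.04 and 3.35 in RS mice. Of the RT mice, 4 lay below every RS mouse. The difference was -0.26 (95% interval -0.47 to -0.06, limma adjusted p = 0.0731, exact permutation p = 0.0195). A value at this level is within the range that olfactory receptor genes gave, of which 81.2% were dimmer.

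The other 4 anterior genes were not called. Hoxa2 had a difference of -0.21 (limma adjusted p = 0.129) and 4 of its 6 RT mice lay below every RS mouse. Hoxa3, which with Hoxb3 shapes the thymus and other organs of the throat, had a difference of -0.07, Hoxb2 of -0.02 and Hoxb3 of 0.02. Hoxb3 lay at 4.80, 4.95 and 5.20 in RT mice (lowest, median, highest) and at 4.80, 4.88 and 5.39 in RS mice. Its highest RS value came from RS-4 and stood apart from the other RS mice.

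None of the 14 central genes was called, and their median difference was -0.05. These genes act in the trunk, where Hoxa5 is needed for the airway and diaphragm and Hoxc6 and Hoxc8 serve the motor neurons of the forelimb level. Hoxa4, the brightest of cluster A, lay at 5.39, 5.57 and 5.61 in RT mice (lowest, median, highest), against 5.50, 5.66 and 5.84 in RS mice. All 6 RT mice lay below the RS median, and the difference of -0.13 was not called (95% interval -0.29 to 0.03, limma adjusted p = 0.257). The paralog 4, 5 and 6 genes differed by -0.19 for Hoxc4 to 0.14 for Hoxa5, and the paralog 7 and 8 genes by -0.08 for Hoxc8 to 0.30 for Hoxd8.

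Hoxd8 was the central gene with the highest signal and the widest spread. It lay at 5.89, 6.02 and 6.44 in RT mice (lowest, median, highest), against 5.24, 5.65 and 6.30 in RS mice. All 6 RT mice were above the RS median, yet RS-1 and RS-2 reached 6.30 and 6.27. The difference of 0.30 was not called (95% interval -0.04 to 0.65, limma adjusted p = 0.210). It was called higher without RS-1, at 0.41 (limma adjusted p = 0.0648), and without RS-2, at 0.40 (limma adjusted p = 0.0931).

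Of the 16 posterior genes, 2 were lower in RT, namely Hoxb9 and Hoxb13, and the median difference was -0.12. Hoxb9 acts with its paralogs on the patterning of the ribs. Its values were 4.55, 4.69 and 4.74 in RT mice (lowest, median, highest), against 4.61, 4.94 and 5.14 in RS mice. The 6 RT mice were packed within a narrow range, all below the RS median, and RS-2 and RS-3 lay among them. The difference was -0.24 (95% interval -0.43 to -0.05, limma adjusted p = 0.0826, exact permutation p = 0.0260).

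Hoxb13 acts at the tail end of the body axis and in the prostate, and its mean of 3.77 was close to the background limit. It lay at 3.54, 3.63 and 3.73 in RT mice (lowest, median, highest), against 3.61, 3.95 and 4.16 in RS mice. All 6 RT mice were below the RS median, and RS-1 alone lay within the RT range. The difference was -0.27 (95% interval -0.46 to -0.08, limma adjusted p = 0.0521, exact permutation p = 0.0130), the largest of the 5 called.

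The remaining paralog 12 and 13 genes were all lower in mean in RT without being called. Hoxc12 differed by -0.30 (limma adjusted p = 0.104), Hoxd13, a gene of digit formation, by -0.28 (limma adjusted p = 0.1002), and Hoxd12 by -0.23. Hoxc13 differed by -0.17 and Hoxa13 by -0.14. None of them but Hoxa13 was above background.

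Genes of paralogs 9 to 11 went in both directions without a call apart from Hoxb9. Hoxa9, which is also a regulator of blood stem cells, differed by 0.20 (limma adjusted p = 0.151), with all 6 RT mice above the RS median. Hoxa11, which patterns the middle limb segment, differed by 0.27 (limma adjusted p = 0.158) and its partner Hoxd11 by -0.16. Hoxc10 differed by 0.12 (95% interval -0.09 to 0.32, limma adjusted p = 0.428). Hoxc9, Hoxc11, Hoxd9 and Hoxa10 differed by -0.04, 0.01, 0.02 and -0.10.

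**Figure D4:**
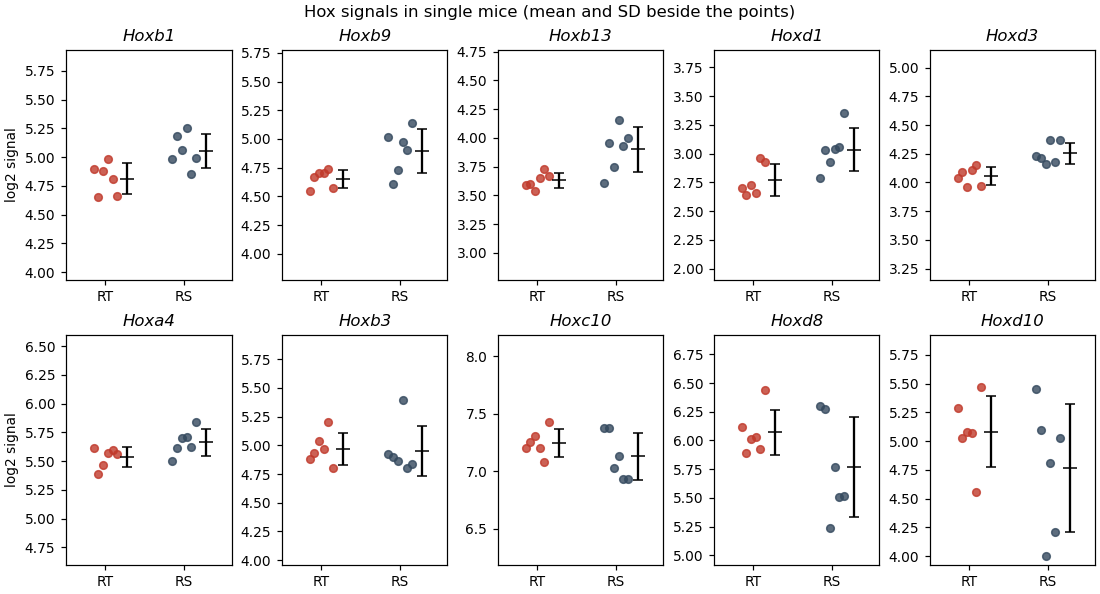
Log2 signal of 10 Hox genes in single mice, RT left and RS right, each panel spanning the same 2 log2 units, with the mean and SD beside the points (n = 6 per group). The upper row holds the 5 genes called lower in RT, of which Hoxd3 alone has separate groups, and the lower row holds Hoxa4, Hoxb3, Hoxc10, Hoxd8 and Hoxd10, none of which was called.

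By cluster, cluster B had 3 lower genes of 9 and a median difference of -0.07, and cluster D had 2 of 9 and a median of -0.16. In the signal classes of all 37 Hox genes 18.8% were lower. Clusters A and C had no called gene and medians of -0.05 and -0.04. Of the 30 genes above background 4 were lower, with a median of -0.05. Of the 7 others 1 was lower, and all 7 differences were below 0, with a median of -0.23. Olfactory receptor genes had a median difference of -0.00, with 4.11% lower and 2.15% higher. Their median signal of 2.07 is below all 7 of these Hox genes, so they are no comparison at the same level. The 7 genes lie in the classes of mean signal from 2.71 to 3.38 and from 3.38 to 3.94. In these classes 16.6% and 23.4% of all transcript clusters were lower, and fewer were higher. The median difference of each class was not computed.

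The 5 calls depended on single arrays and on scaling. Lower Hox genes numbered 0 without RS-4, 2 without RS-6, 1 without RT-2 and 3 without RT-1, without RT-3 or without RT-6. Of all transcript clusters, 9.06%, 9.76%, 9.66%, 10.1%, 11.1% and 8.86% were lower in these settings, in the same order. Higher calls came to 2 without RS-1 (Hoxa9 and Hoxd8), 2 without RS-2 (the same) and 1 without RT-3 (Hoxa11). Of all transcript clusters, 15.8%, 11.4% and 9.51% were then higher. With each array centered on its median, Hoxb13 stayed lower and Hoxa9 and Hoxa11 became higher, while over all transcript clusters 5883 were then higher and 2414 lower.

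RS-4 and RS-6 stood apart from the other arrays. Their values were spread over a smaller range, with an SD over all transcript clusters of 1.97 and 1.99, against 2.06 to 2.15 on the other 10 arrays, and array medians ran from 4.40 to 4.48 in RT and from 4.46 to 4.63 in RS. Without both, no Hox gene was called, and the differences of the 5 genes shrank to between -0.20 and -0.14 (limma adjusted p from 0.195 to 0.292). With array spread added as a covariate, none was called either, with differences of -0.17 to -0.12. Of all transcript clusters, 6.19% were lower and 5.70% higher without both arrays. With the covariate these shares were 3.07% and 2.53%.

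Markers of connective tissue and other cells moved with the groups. Of 13 fibroblast markers 10 were higher in RT with a median difference of 0.58, of 8 tendon markers 6 with 1.16, and of 9 macrophage markers all 9 with 0.81. Of 9 endothelial markers 6 were higher, of 8 smooth muscle and pericyte markers 5 and of 7 adipocyte markers 4, and none was lower in these lists. Satellite cell markers gave 3 higher and 1 lower of 10, Schwann cell markers 1 and 1 of 5, and muscle fiber markers none of 12. These marker counts come from the main fit and were not repeated without RS-4 and RS-6 or with array spread as a covariate. Of all transcript clusters in the signal classes of each list, the shares higher were 21.6% for fibroblasts, 18.2% for tendon and 18.9% for macrophages. They were 25.2% for endothelium, 22.3% for smooth muscle and pericytes, 14.0% for adipocytes and 22.2% for muscle fibers. For satellite cells 17.5% were higher and 13.1% lower, and for Schwann cells 14.7% and 15.9%. The fibroblast markers summed, on the log2 scale, to 12.60 to 12.93 in RT and 11.63 to 12.57 in RS, with 12 of 13 above background, and the tendon markers to 9.74 to 10.30 in RT and 8.54 to 9.77 in RS, with 8 of 8 above background. Hox genes are used in such connective tissue cells, and the part of these cells in the Hox values was not tested.

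Among TALE cofactors, the homeodomain proteins that bind DNA beside Hox proteins, 10 genes were measured. Pbx4 was lower in RT, at 4.20, 4.63 and 4.91 (lowest, median, highest), against 4.81, 5.00 and 5.13 in RS, a difference of -0.39 (limma adjusted p = 0.0242). The other 9 were not called, including Meis1 at 0.22 and Pknox2, the brightest, at 0.23, and the median of the list was 0.07. For this and the following lists, the counts are set beside the shares of all transcript clusters called in the same classes of mean signal, weighted by the genes of the list in each class, which were 12.7% higher and 16.9% lower for the TALE cofactors.

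The ParaHox genes, and other homeobox genes such as the Evx, Gbx, En, Mnx and Meox genes, are relatives of Hox genes. Of 15 measured, 7 were lower (46.7%, against 17.3% in the same signal classes) and 1 was higher in RT (8.42% in the classes), with a median difference of -0.20. The count of 7 depended on the setting. It was 4 after a further quantile normalization, after cyclic loess scaling, and without RS-4 and RS-6, and 2 with array spread as a covariate. In these settings 9.53%, 9.73%, 6.19% and 3.07% of all transcript clusters were lower. Gbx2, a gene of the midbrain and hindbrain border, was at 4.53, 4.85 and 4.96 in RT, against 5.05, 5.29 and 5.43 in RS (lowest, median, highest), without overlap, a difference of -0.48 (limma adjusted p = 0.00636). Gsx1 differed by -0.46, Mnx1 by -0.44, Evx2, which adjoins Hoxd13, by -0.43, Gsx2 by -0.35, Cdx2 by -0.32 and Pdx1 by -0.26. Of these 7 lower genes Mnx1 and Gsx2 were not above background, and most serve the nervous system or the gut in the embryo.

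Meox2 was the higher one, a homeobox gene of muscle precursors and vessels. It lay at 6.47, 6.71 and 6.99 in RT mice (lowest, median, highest), against 5.54, 5.87 and 6.37 in RS mice. The groups did not overlap, and the difference of 0.75 (limma adjusted p = 0.00302) was also called without RS-4 and RS-6 and with array spread as a covariate.

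Of 26 limb and regional identity factors, 3 were higher and 5 lower in RT (11.5% and 19.2%), with a median of -0.07. Both shares were near those of the same signal classes, 12.6% and 16.5%. Osr1, a marker of fibro-adipogenic progenitors in muscle, was at 5.21, 5.62 and 5.83 in RT, against 4.54, 4.84 and 5.31 in RS (lowest, median, highest), a difference of 0.73 (limma adjusted p = 0.00314). Prrx1, a gene of limb connective tissue, differed by 0.41 and Tcf7l2, found in muscle connective tissue fibroblasts, by 0.23. Shh, the signal of the posterior limb bud, differed by -0.45 (limma adjusted p = 0.00534), Isl1 by -0.43, Pitx1 by -0.43, Hand2 by -0.40 and Lmx1b, which marks the dorsal limb, by -0.34. Isl1 was not above background, and Tbx4 was not called at -0.20 (limma adjusted p = 0.147).

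Polycomb and Trithorax proteins keep Hox clusters silent or active through chromatin marks. Of 38 measured genes 6 were higher (15.8%) and 1 was lower (2.63%) in RT, with a median of 0.09. Both shares were below those of the same signal classes, 21.7% and 10.1%. Pcgf3, a subunit of a Polycomb complex, was at 7.55, 7.67 and 7.88 in RT, against 6.73, 6.98 and 7.48 in RS (lowest, median, highest), without overlap, a difference of 0.66 (limma adjusted p = 0.00279). Mtf2 differed by 0.33, Rbbp7, the brightest, by 0.30, and Kdm6a, an eraser of the Polycomb mark, by 0.28. Rbbp4 differed by 0.26 and Ezh1 by 0.20, and Cbx8, which reads that mark, by -0.24. The writer Ezh2 and the Trithorax enzyme Kmt2a were not called, at 0.02 and 0.09.

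Retinoic acid switches on anterior Hox genes in the embryo, and 16 genes of its synthesis, transport and reception were measured. Aldh1a2, which makes retinoic acid, was at 6.47, 6.54 and 6.94 in RT, against 5.67, 5.99 and 6.56 in RS (lowest, median, highest), a difference of 0.55 (limma adjusted p = 0.0142). The receptor Rara differed by 0.22, the retinol carrier receptor Stra6 by -0.31 and the binding protein Crabp1 by -0.27, which made 2 higher and 2 lower (12.5% each, against 17.2% and 12.5% in the same signal classes). Aldh1a1, the brightest, was not called at 0.27 (limma adjusted p = 0.109), and the median was 0.11.

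**Figure D5:**
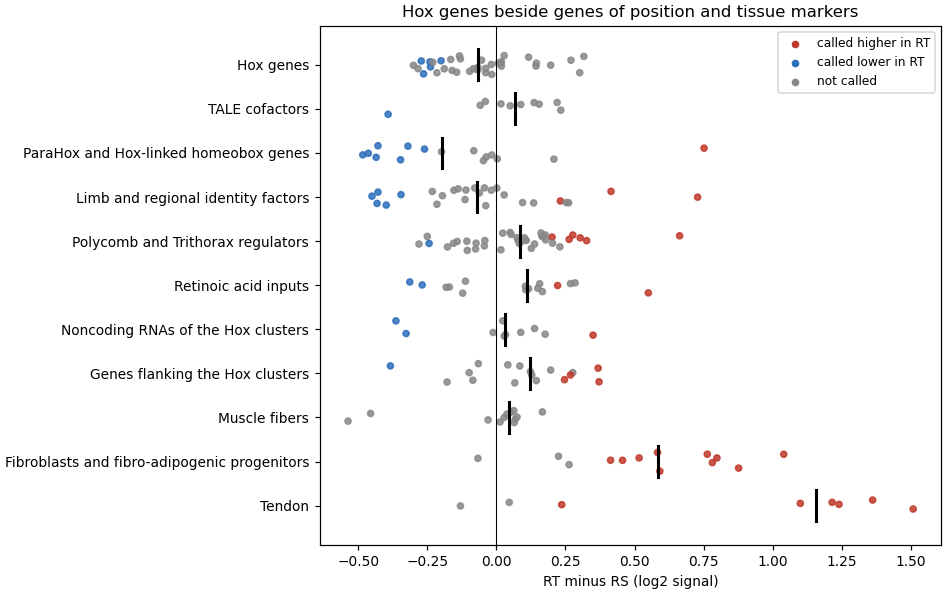
RT minus RS difference in log2 signal (horizontal axis) of every measured gene of the Hox genes and 10 other lists (vertical axis), with called genes in color and the median of each list as a black bar. The Hox genes lie within -0.30 to 0.32, and the fibroblast and tendon markers have medians of 0.58 and 1.16.

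Noncoding RNAs of the Hox clusters were measured by 10 of 18 listed transcript clusters, of which 2 were above background. Of the 10, 1 was higher and 2 were lower, against 5.51% and 13.3% in the same signal classes. Mir615, from within the Hoxc cluster, was above background and lower in RT, at 5.39, 5.56 and 5.69, against 5.51, 5.88 and 6.43 in RS (lowest, median, highest), a difference of -0.33 (limma adjusted p = 0.0889). Mir10b, from the Hoxd cluster, was higher by 0.35 (limma adjusted p = 0.0307) at a mean of 1.70, and Mir196a-1, from the Hoxb cluster, was lower, with a difference of -0.36 (limma adjusted p = 0.0168), at a mean of 2.16. Both are within the background range. Their seed partners Mir10a, Mir196a-2 and Mir196b, with the mature sequences given above, were not called, at -0.01, 0.18 and 0.03, and a signal under a miRNA gene's name was not shown to be mature miRNA.

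Hoxd3os1, an antisense RNA of Hoxd3, was the other one above background, at 4.80, and differed by 0.14. Hottip, a long noncoding RNA beside Hoxa13, was at 2.43 and Haglr, in the Hoxd cluster, at 2.90. Among 17 genes flanking the clusters, which share chromosome neighborhoods but not the family, 4 were higher (23.5%) and 1 was lower (5.88%), against 16.3% and 13.3% in the same signal classes, with a median of 0.12. Atf2 and Atp5g2 were each higher by 0.37, Chn1 by 0.27 and Calcoco1 by 0.25, and Skap1, which was not above background, differed by -0.38. The brightest was Atp5g3, at 10.20. Of the called genes described from these lists with the largest differences, Meox2, Osr1, Pcgf3, Mir10b, Gbx2 and Shh were called both without RS-4 and RS-6 and with array spread as a covariate, and each of the others lost its call in at least 1 of these.

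Within groups, Hox genes had a median SD of 0.18, against 0.18 over all transcript clusters in the Hox range of signal. Hoxd10 was the most variable, with an SD of 0.45 that exceeded 98.8% of them, and Hoxd8 followed with 0.34 (96.4%). Hoxd10, a gene of lumbar motor neurons and the hindlimb, was singled out after its values were seen. It lay at 5.29, 5.03, 5.08, 5.07, 4.56 and 5.47 in RT-1 to RT-6, against 5.45, 5.10, 4.00, 4.81, 4.21 and 5.03 in RS-1 to RS-6.

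RS-1 and RS-2 were the highest RS mice for Hoxd10, as they were for Hoxd8, Hoxd9, Hoxc10 and Hoxa9, a pattern noticed in the values and not tested. They were also highest for the anterior Hoxa2, both 3.61 against at most 3.42. They were narrowly highest for the central Hoxa5 and Hoxa6 and the posterior Hoxa10. For Hoxd9 they read 5.68 and 5.66, against at most 5.45 in the other RS mice, and for Hoxc10 both read 7.38, against at most 7.13. For Hoxa9 they read 5.21 and 5.24, against at most 4.99. Other Hox genes did not follow this pattern, among them posterior ones. RS-4 was the highest RS mouse for Hoxc9 (5.84) and Hoxd11 (4.94), RS-2 the lowest for Hoxb9 (4.61) and RS-1 the lowest for Hoxb13 (3.61). RS-3 and RS-5 gave the 2 lowest Hoxd10 values, 4.00 and 4.21, and RS-3 also the lowest of all 12 mice for Hoxd8, at 5.24. The median over all 37 Hox genes was 4.25 to 4.48 in RT mice and 4.20 to 4.56 in RS mice.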

How the data were processed

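Gastrocnemius RNA of 6 RT and 6 RS mice was hybridized to 1 array per mouse. The deposited values are log2 signals, which the authors normalized by RMA per the labels; the methods name both SST-RMA and RMA, and which of them made the values is not settled. The genome build of the probes is not given in the sources used here, so coordinates are given only for RefSeq sequences. Symbols came from the platform annotation. Of 28944 transcript clusters 21789 carried 1 symbol, 1621 several and 5534 none. Groups were taken from the sample labels.

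RT minus RS was fitted without covariates (R 4.3.3; limma 3.58.1, lmFit followed by eBayes), two-sided, over all transcript clusters, as the methods' one-way comparison and thresholds (unadjusted p under 0.05, Benjamini-Hochberg adjusted p under 0.1). Exact permutation tests of the difference of means were two-sided. Tables and figures were made with Python 3.11.15. The fit was tested on simulated data. The number of arrays limits the precision. The Hox genes, the 7 lists of genes of position and the 9 cell type lists were chosen with earlier results of these data known. Genes named from lists were the up to 2 called genes per direction with the largest difference and the brightest gene; others are named after their values were seen. Per-mouse values are given for called Hox genes and for the brightest per cluster and class. Alternatives were 3 further scalings, a spread covariate, leaving out RS-4 and RS-6, a filter on dim transcript clusters, the methods' t-test, eBayes with trend and robust, array weights, a replicate block, stricter thresholds, transcript clusters with 1 symbol alone, identical ones counted once, other background limits and each array left out.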

Additional observations from a re-analysis of the deposited data

Results flagged for a closer look

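Of the 126 groups of 6 mice tested, over 63 genes, 3 held a mouse far from the other 5 of its group, and chance alone marks about 1 in 20 groups. Hoxb3 was 5.39 in RS-4, while the other RS mice lay between 4.80 and 4.92. Aldh1a2 was 6.94 in RT-4, while the other RT mice lay between 6.47 and 6.59. Atf2 was 6.92 in RT-6, while the other RT mice lay between 6.63 and 6.73. Their causes were not tested.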

How the results depend on the processing

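The 37 Hox genes gave 5 lower and 0 higher calls in RT. With the further quantile normalization and with cyclic loess, 1 was lower and 1 higher, and with arrays centered on their medians 1 was lower and 2 were higher. Of all transcript clusters, 9.53% were lower and 9.62% higher with quantile normalization, and 9.73% and 9.57% with cyclic loess. With the spread covariate, without both RS-4 and RS-6, and at an adjusted p under 0.05, 0 were lower, and with array weights 3. Transcript clusters with 1 symbol alone gave 7 lower, and identical ones counted once gave 6. The replicate block gave 3 lower (Hoxb13, Hoxc12 and Hoxd1) and 0 higher, with 2873 higher and 3174 lower over all transcript clusters and 14 higher and 17 lower over the 7 lists. Mice share only a number: correlations of same-numbered mice lay between -0.24 and 0.11, and 1 of 12 was closest to its own number. Leaving out 1 array gave 0 to 6 lower and 0 to 2 higher Hox genes, 2360 to 4573 higher and 2564 to 4806 lower transcript clusters, and 10 to 25 higher and 14 to 22 lower list genes. Over all, 3445 were higher and 3764 lower. These counts were 5883 and 2414 with centering, 732 and 888 with the spread covariate, 1649 and 1791 without RS-4 and RS-6, and 2092 and 2307 at an adjusted p under 0.05. With 1-symbol transcript clusters alone, 2357 were lower. The 7 lists gave 17 higher and 19 lower genes. They gave 33 higher with centering, 11 with cyclic loess, 9 at an adjusted p under 0.05, 4 higher and 3 lower with the spread covariate, and 6 and 10 without RS-4 and RS-6. Hoxc10 changed sign to -0.012 with quantile normalization and -0.022 with cyclic loess, and Hoxb3 to -0.012 without RS-5, -0.004 without RS-6 and -0.028 without RT-5. Hox genes above background numbered 17 by the 99th percentile. The 5 lower genes kept their sign in every setting that tested them, and the filter on dim transcript clusters left Hoxd1 out and called the other 4. The causes of these changes were not tested. Each Hox gene had 1 transcript cluster, so the mean over all of a gene gave the same 5 and 0. Signals near background limit 7 of the Hox genes.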
